A study of Rattus norvegicus with 12 samples.

Results

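Macrophage marker genes, 10 in number, were followed in dorsal root ganglia of rats given cisplatin, with or without CYM-5478. They are Aif1, Cd68, Cd163, Csf1r, Emr1, Fcer1g, Itgam, Mrc1, C1qa and C1qb, chosen by symbol as known markers of this cell type. No threshold on their values was used, though earlier results of these data were known when they were chosen. All 10 were found among the 25252 genes of the table, each under 1 gene, and all 10 passed the filter of a mean of 0.5 FPKM that left 16761 genes to test. FPKM is a fragment count scaled by transcript length and library size, so levels of different genes can be set side by side.

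Dorsal root ganglia hold the cell bodies of sensory neurons. They came from 12 Sprague Dawley rats of wild genotype in 3 groups of 4, described as biological replicates. The vehicle was saline containing 1% DMSO and 0.1% Tween 20. Cisplatin, a platinum chemotherapy drug, was injected intraperitoneally on days 0, 7 and 14, each time at 3 mg/kg. The remaining rats received identical cisplatin together with CYM-5478, which activates S1P2, one of the receptors for sphingosine 1-phosphate. CYM-5478 was dosed every day between day -1 and day 20, at 0.1 mg/kg by the sample labels and 1 mg/kg by the treatment protocol. No group had CYM-5478 alone, and the rats' age and sex and the spinal level of the ganglia are not given in the sources used here. Whole ganglia were measured, so more macrophages and more RNA per macrophage cannot be told apart.

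Resident macrophages of sensory ganglia lie around neurons and blood vessels, clear debris, and are known to react to nerve injury. They depend for survival on the growth factors CSF1 and IL-34, which both act through the receptor that Csf1r encodes. They are a main source of C1q, the protein that starts the classical complement pathway, and they take up antibody-coated material through Fc receptors whose signals need the gamma chain encoded by Fcer1g. Several of the 10 genes are not confined to macrophages. Neutrophils also use Itgam and Fcer1g, and mast cells and natural killer cells use Fcer1g. In bulk RNA the markers therefore report on a mixture.

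The transcription factor PU.1, encoded by Spi1, drives many macrophage genes through purine-rich elements known as PU boxes, and many myeloid promoters lack a TATA box. As background, the 250 bases before the annotated start were looked at in the RefSeq promoter table for the rat build GRCr8. Of the 10 genes, 8 had an entry there, Emr1 under its other name Adgre1, and Aif1 and Fcer1g are named only. The letters GAGGAA, searched on both strands with the sequences in view, occurred in 6 of the 8 windows and in 23.3% of all 33469 windows of this length. The letters TATAAA, searched on both strands, occurred in 0 of the 8 and in 12.9% of all. With 8 windows, 0 cannot be told apart from that share. Shown are the neighbouring complement genes, of which 1 has the PU box and 1 does not, and the promoters of Emr1 and Cd68. Capitals mark GAGGAA or its reverse complement. A match is a description of letters and not of a bound site. No link between these letters and the values of the markers was tested.
C1qa, chr5:154419934-154420183, minus strand, GRCr8: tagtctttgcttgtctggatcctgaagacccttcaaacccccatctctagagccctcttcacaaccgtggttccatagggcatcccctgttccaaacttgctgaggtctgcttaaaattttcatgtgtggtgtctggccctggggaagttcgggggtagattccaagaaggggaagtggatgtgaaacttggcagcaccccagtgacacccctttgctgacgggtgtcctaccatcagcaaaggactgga
C1qb, chr5:154407828-154408077, minus strand, GRCr8: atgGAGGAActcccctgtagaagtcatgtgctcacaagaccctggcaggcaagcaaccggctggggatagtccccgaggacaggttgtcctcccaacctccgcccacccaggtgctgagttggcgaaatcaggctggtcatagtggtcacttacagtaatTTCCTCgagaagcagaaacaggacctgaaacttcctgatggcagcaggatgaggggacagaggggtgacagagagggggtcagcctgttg
Emr1 (Adgre1), chr9:2329190-2329439, plus strand, GRCr8: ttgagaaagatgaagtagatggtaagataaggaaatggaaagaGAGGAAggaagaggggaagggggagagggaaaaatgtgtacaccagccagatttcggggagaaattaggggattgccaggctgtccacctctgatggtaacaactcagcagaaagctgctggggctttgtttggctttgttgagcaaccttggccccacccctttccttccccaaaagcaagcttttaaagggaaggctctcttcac
Cd68, chr10:54882442-54882691, minus strand, GRCr8: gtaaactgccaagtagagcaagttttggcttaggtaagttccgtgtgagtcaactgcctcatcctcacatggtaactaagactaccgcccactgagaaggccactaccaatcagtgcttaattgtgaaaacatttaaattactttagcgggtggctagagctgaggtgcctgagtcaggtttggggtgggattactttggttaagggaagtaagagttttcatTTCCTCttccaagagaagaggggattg

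In C1qb the PU boxes began 247 and 90 bases before the start, in Emr1 the single one began 207 bases before it, and in Cd68 the single one began 27 bases before it. The C1qa window held none. Csf1r, Itgam and Mrc1 had 2 each, and Cd163 had none. In the RefSeq order of rat chromosome 5, C1qb, C1qc and C1qa lie side by side.

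Facts of the whole data set that touch these genes are few. Counted in units of 1000, the total FPKM per library was between 593 and 676, highest in the 4 cisplatin libraries (641 to 676). Absolute depth is unknown, so no counting interval is given. Spearman correlations between libraries ran from 0.963 to 0.987. Sensory neuron genes were high, with Uchl1 at 1150 ± 139 FPKM in vehicle (SD, n = 4). Their level moved with treatment. The summed FPKM of 14 pan-neuronal genes lay between 5130 and 7390 in vehicle, 2670 and 4510 after cisplatin, and 5310 and 6630 with CYM-5478. No marker list of any cell type looked at had a gene at 0 in all 12 libraries.

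The markers differed widely in level. C1qa stood highest at 62.3 ± 10.6 FPKM over all 12 libraries, and C1qb followed at 50.7 ± 11.7. C1qa was above C1qb in 12 of 12 libraries. C1qb was above Csf1r (44.8 ± 5.73) in 10 libraries, Csf1r above Aif1 (42.9 ± 8.68) in only 8, and Aif1 above Fcer1g (34.7 ± 10.4) in 10, so these neighbours in the order overlapped. Steps that held in 12 of 12 libraries were those from Fcer1g to Mrc1 (21.7 ± 3.33), from Mrc1 to Emr1 (13.6 ± 1.92) and from Emr1 to Cd68 (11 ± 1.95). At the low end Cd68 was above Cd163 (9.75 ± 2.49) in 8 libraries and Cd163 above Itgam (8.42 ± 1.46) in 9. Among the 16761 tested genes, the vehicle means ranked from the 42.4th percentile for Cd163 to the 89.9th for C1qa.

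**Figure D1:**
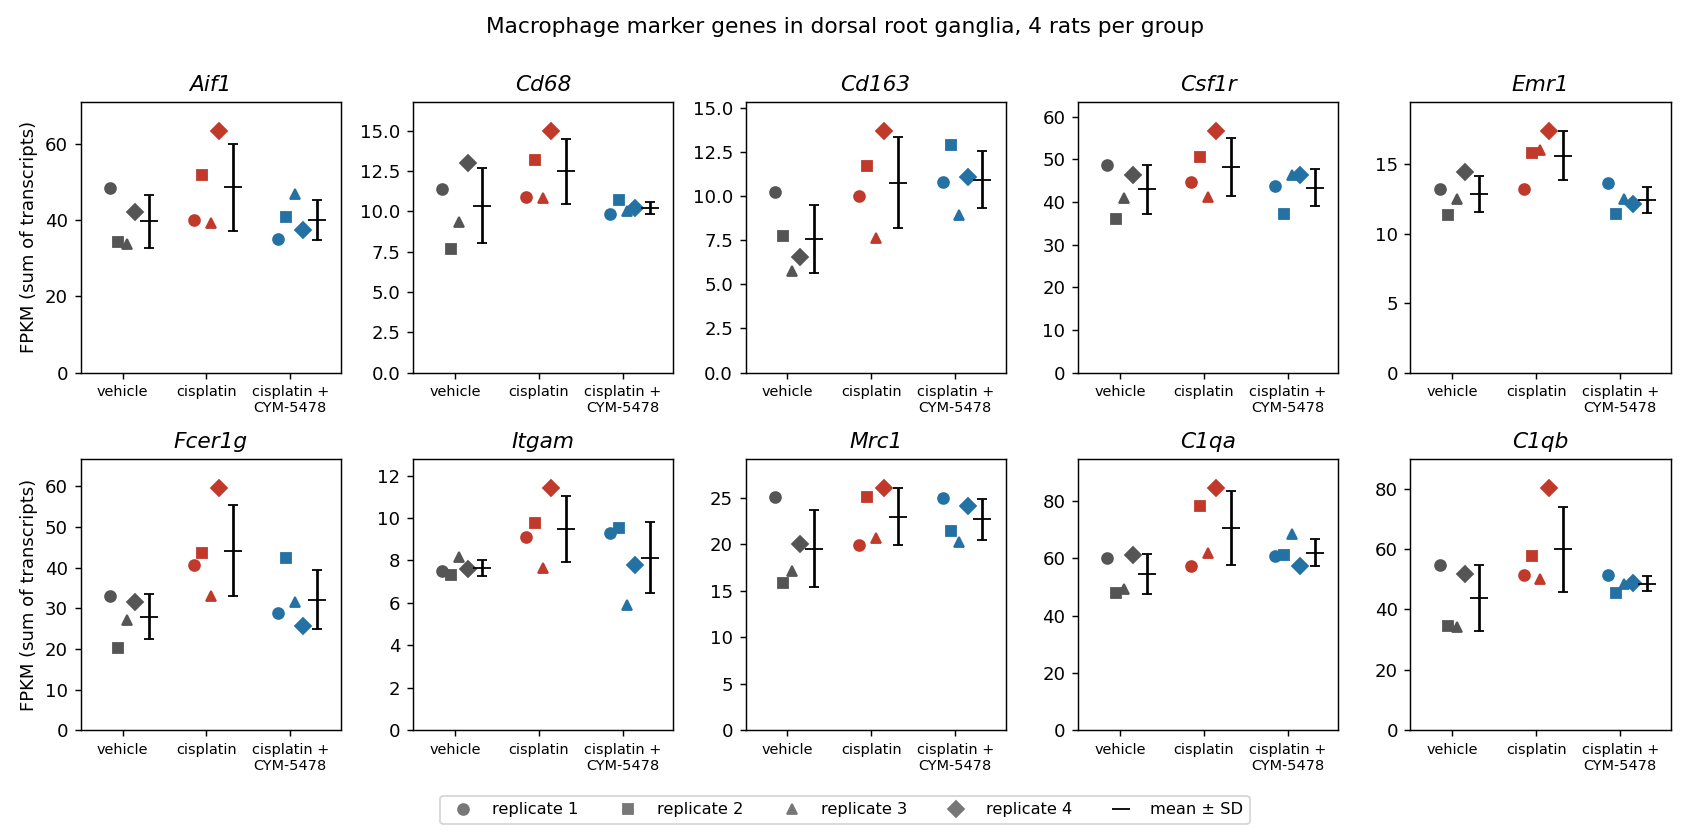
FPKM of each of the 10 macrophage markers in the 12 rats (vertical axis from 0, linear, 1 panel per gene), with points for rats and mean ± SD for the 3 groups of 4. The highest point of every panel belongs to cisplatin replicate 4, and only in the Fcer1g panel do all 4 cisplatin points lie above all 4 vehicle points.

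The first comparison asks what cisplatin did to these genes against vehicle. All 10 had a higher mean after cisplatin, by 0.16 to 0.64 on the log2(FPKM + 0.5) scale, and none passed the test. The scale understates changes of low genes. Limma, fitted to all 12 libraries with Benjamini-Hochberg adjustment over all 16761 genes, gave adjusted p from 0.0645 to 0.411 for the 10, where 10.7% of all tested genes passed 0.05 in either direction and 2.73% passed as higher. The median change of the 10 was 0.27, against 0.02 over all tested genes, and 10.9% of all tested genes had a change at or above 0.27. At an unadjusted p under 0.05 stood 5 of the 10, against 28.4% of all genes. On the TPM scale the median of the 10 was 0.16 with 1 gene at an unadjusted p under 0.05, and the median of all genes was -0.09.

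Genes of several other non-neuronal cell types, though not of all, were also higher in mean after cisplatin. The direction was therefore not particular to macrophage markers. The median log2 change was 0.29 for Schwann cell genes, with 9 of 9 above 0, and 0.34 for fibroblast genes, with 6 of 6 above 0. It was 0.26 for endothelial genes and 0.70 for skeletal muscle genes, with 6 of 6 above 0 in each. Summed muscle FPKM was 8.44 to 15.9 in vehicle and 9.18, 58, 27.8 and 12.3 after cisplatin. Only cisplatin replicates 2 and 3 lay above the vehicle rats in this sum. Over all tested genes 53.7% were above 0. In limma 0 of 9 Schwann cell genes, 2 of 6 fibroblast genes, 1 of 6 endothelial genes and 0 of 6 muscle genes rose. Satellite glia genes went otherwise, with a median of -0.16 and 2 of 9 above 0. Past the limma threshold 1 of them was higher and 3 were lower. Neutrophil, red blood cell, and T and natural killer cell genes had medians of 0.41, 0.46 and 0.24. Above 0 were 11 of 11, 5 of 6 and 4 of 6 of them, and 0 passed the limma threshold. B cell and mast cell genes had medians of 0.06 and 0. The part of these cells, and of the lower neuronal RNA, in the marker values was not tested.

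Fcer1g, the signalling chain shared by Fc receptors, showed the largest difference of the 10. Its FPKM in vehicle replicates 1 to 4 was 32.9, 20.3, 27.2 and 31.4. After cisplatin it was 40.5, 43.6, 32.9 and 59.5, and with CYM-5478 28.8, 42.3, 31.4 and 25.6. The 4 cisplatin rats all lay above the 4 vehicle rats, though replicate 3 and vehicle replicate 1 both round to 32.9. The CYM-5478 rats overlapped both groups. The log2 change after cisplatin was 0.64 (SE 0.20, 95% interval 0.19 to 1.08), a 1.55-fold difference, with limma's adjusted p = 0.0645. It was the 1 gene of the 10 whose groups did not overlap, as was the case in the higher direction for 7.33% of all tested genes. Without cisplatin replicate 4 the change was 0.48 (adjusted p = 0.158), and without cisplatin replicate 3 it was 0.76 (adjusted p = 0.0429), the only setting tried in which any of the 10 passed.

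Neutrophil and granulocyte precursor markers varied widely between rats. Their summed FPKM, over 12 genes of which 11 passed the filter, was 432 to 1130 in vehicle, 492 to 1920 after cisplatin and 215 to 2340 with CYM-5478. The 2340 was in CYM-5478 replicate 2, where Fcer1g was highest of its group, and the 1920 was in cisplatin replicate 4. Other rats went otherwise. The highest vehicle sum, 1130, was in replicate 3, where Fcer1g was below replicates 1 and 4, and the lowest sum, 215, was in CYM-5478 replicate 3, where Fcer1g was second highest of its group. The most abundant neutrophil genes, S100a8 and S100a9, were at 414 ± 166 and 180 ± 83.0 FPKM in vehicle. After cisplatin they were at 598 ± 331 and 336 ± 200. The part of neutrophils in the Fcer1g values was not tested.

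The complement genes C1qa and C1qb encode chains of the same C1q molecule. C1qa was at 59.9, 47.7, 49.1 and 61.1 FPKM in vehicle, 57.4, 78.2, 61.9 and 84.4 after cisplatin, and 60.9, 61.1, 68.4 and 57.1 with CYM-5478. C1qb was at 54.8, 34.4, 34.2 and 51.6 in vehicle, 51.4, 57.8, 50.0 and 80.1 after cisplatin, and 51.4, 45.4, 48.5 and 48.7 with CYM-5478. For both genes vehicle replicates 2 and 3 were low, cisplatin replicate 4 was high, and the groups overlapped. The log2 change after cisplatin was 0.35 (SE 0.13, adjusted p = 0.0914) for C1qa and 0.45 (SE 0.18, adjusted p = 0.119) for C1qb in limma. The ratio of C1qa to C1qb was 1.28 ± 0.163 in vehicle, 1.19 ± 0.133 after cisplatin and 1.28 ± 0.118 with CYM-5478 (SD, n = 4 each). The third chain, C1qc, was not among the 10 and was at 62.9 ± 12.5, 76.3 ± 14.4 and 64.6 ± 4.18 FPKM in the same order of groups, with a log2 change of 0.27 (adjusted p = 0.247).

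Csf1r, the receptor that resident macrophages need to survive, had the smallest change of the 10. It was at 48.6, 35.9, 41.0 and 46.2 FPKM in vehicle, 44.6, 50.4, 41.1 and 56.7 after cisplatin, and 43.8, 37.1, 46.3 and 46.2 with CYM-5478. Only cisplatin replicates 2 and 4 lay above the highest vehicle rat. The log2 change was 0.16 (SE 0.12, 95% interval -0.10 to 0.42), with limma's adjusted p = 0.411. Set against Csf1r in the same rat, Fcer1g was at a ratio of 0.646 ± 0.0548 in vehicle and 0.906 ± 0.105 after cisplatin. These ratios did not overlap (p = 0.0286 in a two-sided exact permutation test, the lowest possible with 4 rats a group, and 0.45 after Benjamini-Hochberg adjustment over 21 tests of 7 ratios). The ratio joins the marker of largest change with that of smallest in these same rats, so its separation is no further evidence of a difference. With CYM-5478 the ratio was 0.757 ± 0.262, spread from 0.553 to 1.14.

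Emr1 encodes F4/80, a surface receptor used in rodents as a macrophage marker. It was at 13.2, 11.3, 12.5 and 14.4 FPKM in vehicle, 13.2, 15.8, 16.0 and 17.4 after cisplatin, and 13.6, 11.4, 12.5 and 12.1 with CYM-5478. Cisplatin replicate 1 lay among the vehicle rats and the other 3 lay above them. The log2 change after cisplatin was 0.26 (SE 0.095, 95% interval 0.05 to 0.47, adjusted p = 0.0953 in limma).

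Itgam encodes the CD11b chain of complement receptor 3, which binds complement-coated particles. It was the steadiest of the 10 in vehicle, at 7.51, 7.31, 8.17 and 7.60 FPKM. After cisplatin it was at 9.10, 9.74, 7.66 and 11.4, and with CYM-5478 at 9.27, 9.53, 5.89 and 7.80. Replicate 3 was the lowest of both treated groups. In CYM-5478 replicate 3 the neutrophil sum was at its lowest of the 12 libraries too, 215 FPKM, and the part of neutrophils in the Itgam values was not tested. The log2 change after cisplatin was 0.27 (SE 0.14, adjusted p = 0.233 in limma).

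Cd163, the scavenger receptor for haemoglobin bound to haptoglobin, and Mrc1, the mannose receptor, mark tissue-resident macrophages. Cd163 was at 10.2, 7.72, 5.75 and 6.54 FPKM in vehicle, 10.0, 11.7, 7.63 and 13.7 after cisplatin, and 10.8, 12.9, 8.92 and 11.1 with CYM-5478. Mrc1 was at 25.1, 15.8, 17.1 and 20.0 in vehicle, 19.9, 25.1, 20.7 and 26.0 after cisplatin, and 24.9, 21.4, 20.2 and 24.1 with CYM-5478. Vehicle replicate 1 was high for both genes, and it overlapped the cisplatin rats in each. The groups overlapped without it too. For Cd163 vehicle replicate 2 (7.72) was above cisplatin replicate 3 (7.63). For Mrc1 vehicle replicate 4 (20.0) was above cisplatin replicate 1 (19.9). The log2 change after cisplatin was 0.48 (SE 0.19, adjusted p = 0.124) for Cd163 and 0.23 (SE 0.14, adjusted p = 0.287) for Mrc1 in limma. Red blood cell genes summed to 8830 to 15300 FPKM in vehicle, 10300 to 35000 after cisplatin and 5730 to 21000 with CYM-5478. Their source, and their part in the Cd163 values, were not tested.

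Aif1 encodes IBA1, a cytoskeletal protein of macrophages and microglia, and Cd68 a glycoprotein of their lysosomes. Aif1 was at 48.5, 34.4, 33.8 and 42.2 FPKM in vehicle, 40.2, 51.9, 39.3 and 63.6 after cisplatin, and 35.1, 41.0, 46.9 and 37.4 with CYM-5478. Cd68 was at 11.4, 7.68, 9.31 and 13 in vehicle, 10.9, 13.2, 10.8 and 15.0 after cisplatin, and 9.84, 10.7, 10.0 and 10.2 with CYM-5478. In both genes 2 of the 4 cisplatin rats were above all vehicle rats. The log2 change after cisplatin was 0.27 (SE 0.16, adjusted p = 0.297) for Aif1 and 0.26 (SE 0.15, adjusted p = 0.27) for Cd68 in limma. Aif1 was the only one of the 10 with more than 1 transcript in the table, and 1 of its 3 transcripts held 95.4% of its FPKM.

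The size of the difference depended on which rats were included. Cisplatin replicate 4 was the highest of all 12 libraries for 10 of 10 markers, and vehicle replicate 2 was the lowest for 6. The summed FPKM of the 10 was 312, 222, 238 and 294 in vehicle, 297, 357, 288 and 428 after cisplatin, and 288, 293, 299 and 280 with CYM-5478. Without cisplatin replicate 4 the median change after cisplatin was 0.19, 10 of 10 were still above 0, and 1 gene was at an unadjusted p under 0.05 in place of 5. The smallest adjusted p was then 0.158. Leaving out vehicle replicate 2 gave a median of 0.23 and a smallest adjusted p of 0.177. Other omissions raised the median, to 0.37 without vehicle replicate 1 or cisplatin replicate 3, 0.35 without vehicle replicate 4 and 0.34 without cisplatin replicate 1. Cisplatin replicate 4 was also highest of all libraries in the sum of 6 B cell genes, 37.4 FPKM where the other 11 libraries lay between 10.9 and 22.4. Its T and natural killer cell sum of 15.3 FPKM was the highest as well, with CYM-5478 replicate 2 at 15.0, and the part of blood or lymphoid cells in the marker values was not tested.

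**Figure D2:**
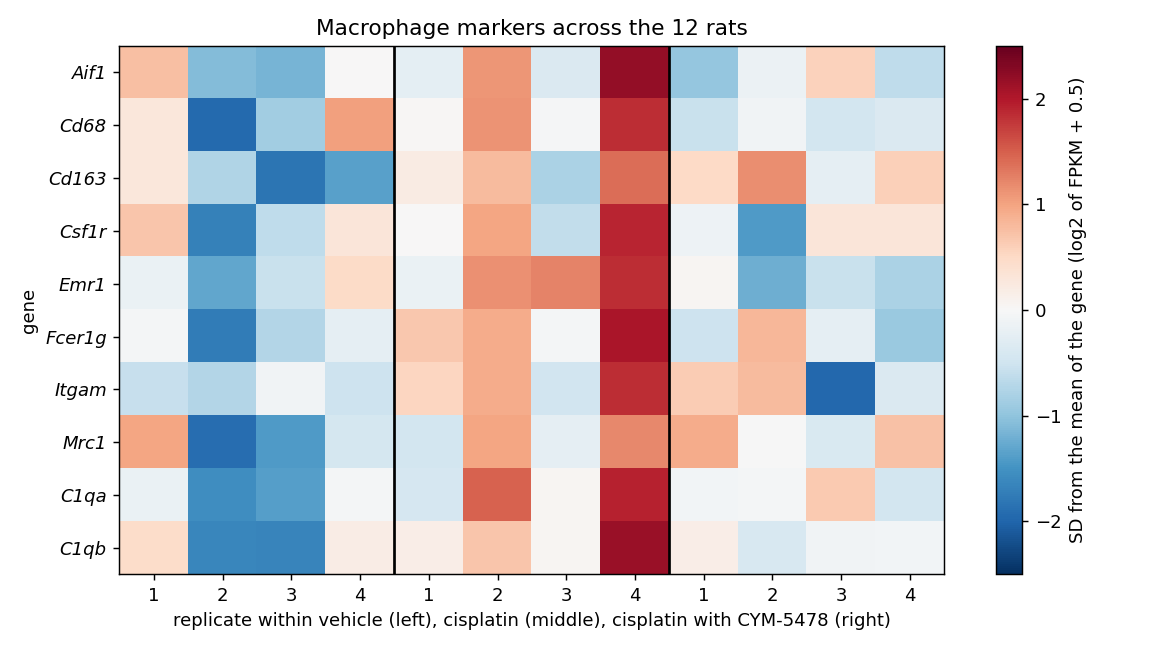
The 10 markers (vertical) in the 12 rats (horizontal, by group), coloured by the distance of log2(FPKM + 0.5) from the gene's mean in units of its SD over the 12 rats. The column of cisplatin replicate 4 is high for 10 of 10 genes, and the columns of vehicle replicates 2 and 3 are low for most.

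**Figure D3:**
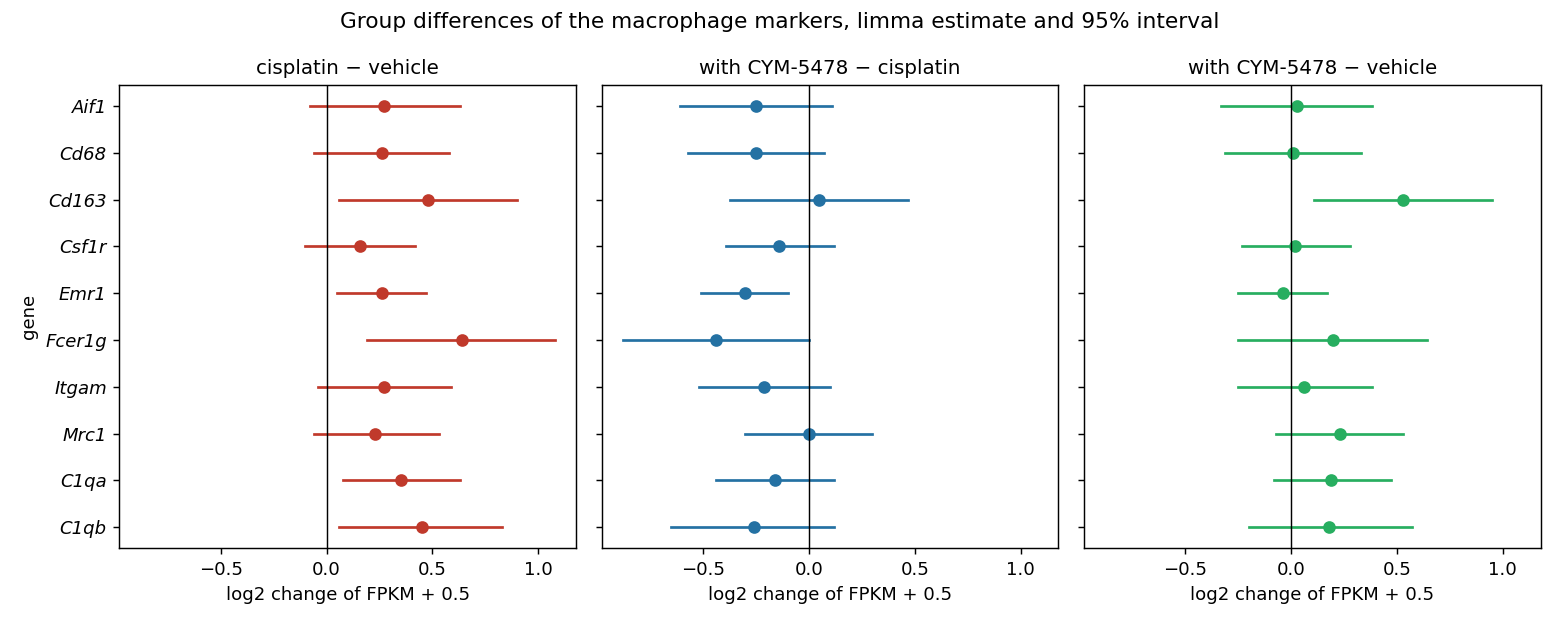
Limma log2 change of each marker with its 95% interval (horizontal axis, log2 scale) in the 3 comparisons. After cisplatin 10 of 10 estimates lie to the right of 0, and with CYM-5478 added to cisplatin 9 of 10 lie to the left.

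The second comparison asks how the ganglia differed when CYM-5478 was added to cisplatin. It shares its cisplatin rats with the first, so a high cisplatin rat moves both, and the values are given side by side without a test of their likeness. Of the 10 markers 9 had a lower mean with CYM-5478 than with cisplatin alone, and none passed the test, with adjusted p from 0.0784 to 0.999 in limma. Over all tested genes 46.7% were above 0 in this comparison. Of all tested genes 5.58% passed in either direction. The median change of the 10 was -0.23, against -0.02 over all genes, and 12% of all genes had a change at or below the members' median. At an unadjusted p under 0.05 stood 1 of the 10, against 24.6% of all genes. Without cisplatin replicate 4 the median of the 10 was -0.11. On the TPM scale it was -0.13, beside 0.08 over all genes.

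The gene at an unadjusted p under 0.05 was Emr1, the F4/80 receptor. Its mean was 15.6 ± 1.73 FPKM after cisplatin and 12.4 ± 0.923 with CYM-5478, beside 12.8 ± 1.32 in vehicle. The log2 change from cisplatin was -0.30 (SE 0.095, 95% interval -0.51 to -0.10, adjusted p = 0.0784 in limma), and -0.25 without cisplatin replicate 4 (adjusted p = 0.181). Cd68 was the 1 gene of the 10 whose 4 CYM-5478 rats all lay below the 4 cisplatin rats, as did those of 6.53% of all tested genes. Its means were 12.5 ± 2.04 and 10.2 ± 0.376 FPKM, and its log2 change was -0.25 (95% interval -0.57 to 0.07, adjusted p = 0.316 in limma).

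Fcer1g differed by -0.44 (95% interval -0.88 to 0.00, adjusted p = 0.206), from 44.1 ± 11.2 to 32.0 ± 7.28 FPKM. C1qb differed by -0.26 (adjusted p = 0.383), Aif1 by -0.25 (0.376), Itgam by -0.21 (0.394), C1qa by -0.16 (0.468) and Csf1r by -0.14 (0.512), with adjusted p from limma in parentheses. For Cd163 and Mrc1 the estimates lay near 0. Cd163 was at 10.8 ± 2.57 FPKM with cisplatin and 10.9 ± 1.63 with CYM-5478, a log2 change of 0.05 (95% interval -0.37 to 0.47). Mrc1 was at 22.9 ± 3.05 and 22.7 ± 2.18, a change of 0.00 (95% interval -0.30 to 0.30). Both intervals reach below the median of -0.23, and the difference between markers was not tested. Some other genes of resident macrophages, not among the 10, had lower means with CYM-5478. The log2 changes were -0.39 for Folr2 and -0.23 for Lyve1, with no adjusted p under 0.05 in limma. Clec10a was near 0 at -0.07, and Siglec1 was at 0.22. Of the 15 tested scavenger and resident macrophage surface genes 2 were above 0 in this comparison, with a median of -0.12.

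The third comparison sets cisplatin with CYM-5478 against vehicle. No gene of the 16761 passed limma's adjusted threshold (0% called), and 970 genes, 5.79%, stood at an unadjusted p under 0.05. The median change of the 10 markers was 0.12, with 9 above 0, against 0.00 over all genes, and 16.8% of all genes had a change at or above the markers' median. Over all tested genes 49.7% were above 0. The 9 markers above 0 became 4 with the title-number block and 6 to 10 with a library left out. Cd163 had the largest, 0.53 (SE 0.19, 95% interval 0.11 to 0.95), from 7.55 ± 1.94 to 10.9 ± 1.63 FPKM. Of its 4 CYM-5478 rats 3 lay above all vehicle rats, its unadjusted p was 0.0172 and its adjusted p was 0.838 in limma. None of the 10 had groups that did not overlap in the higher direction, against 1.58% of all genes.

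Changes of the other 9 markers against vehicle ran from -0.04 for Emr1 to 0.23 for Mrc1. The ratio of Cd163 to Emr1 in the same rat was 0.593 ± 0.161 in vehicle, 0.691 ± 0.144 with cisplatin and 0.889 ± 0.181 with CYM-5478. Set against vehicle, the last had a two-sided exact permutation p of 0.0571 (0.45 after adjustment over the 21 tests). Cd163 and Emr1 had the highest and lowest changes of the markers here, so this ratio is no further evidence of a difference. The ratio of Cd163 to Csf1r was 0.177 ± 0.0415, 0.221 ± 0.0246 and 0.257 ± 0.0652 in the same order of groups.

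The 10 markers varied together from rat to rat. Over the 12 libraries the 45 pairs of genes had Pearson correlations of log2 values from 0.18 to 0.89, with a median of 0.69 and 45 of 45 above 0. The points share their libraries and the treatment groups. With group means taken out the pairs ran from 0.05 to 0.92, with a median of 0.65. C1qb followed the mean of the other 9 most closely, at 0.95, then C1qa at 0.91 and Cd68 at 0.89. Itgam at 0.56 and Cd163 at 0.63 followed it least, and within groups Itgam stood at 0.37.

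Genes outside the 10 whose log2 values followed the markers' mean profile most closely over the 12 libraries were C1qc, the third C1q chain, at a correlation of 0.93, and Prrx1, a transcription factor of connective tissue cells, also at 0.93. Next came Rnf2 and Nsrp1 at 0.92, Rufy1 and Gabpa at 0.91, and Myo7a and Lyve1 at 0.90. Lyve1, a hyaluronan receptor, is known from lymphatic endothelium and from macrophages near vessels. The median correlation of all tested genes with this profile was 0.02. Prrx1 was at 16.1 ± 2.91 FPKM in vehicle, 19.5 ± 4.54 with cisplatin and 16.9 ± 1.17 with CYM-5478, and its highest library was cisplatin replicate 4 at 26.1.

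Genes that work with the markers were followed in 7 further lists, drawn up by function. Of their 91 tested genes 7 passed the limma threshold after cisplatin, 7.69%, a share below the 10.7% of all tested genes. As higher passed 5, 5.49%, against 2.73% of all, and above 0 were 53.7% of all genes, the background for the counts that follow. CSF1 and IL-34 are the ligands of the Csf1r product, and that list also held macrophage transcription factors and receptors of related cytokines. Of its 13 tested genes 0 passed the limma threshold after cisplatin, 11 were above 0, and the median change was 0.16. Csf1 was at 19.8 ± 2.91 FPKM in vehicle and 22.1 ± 2.85 after cisplatin (adjusted p = 0.432), and Il34 at 25.5 ± 2.02 and 29.9 ± 3.53 (adjusted p = 0.167). Spi1, which encodes PU.1, was at 12 ± 1.61 and 14.0 ± 4.55 (adjusted p = 0.641). These 3 are named after their values were seen, as the ligands and the factor introduced above. Maf, a transcription factor of resident macrophages, was at 67.7 ± 1.66 in vehicle, 71.2 ± 11 with cisplatin and 56.1 ± 2.23 with CYM-5478. Its 4 CYM-5478 rats lay below the 4 cisplatin rats (log2 -0.32, adjusted p = 0.0538 in limma). Maf followed the markers' mean profile little, at a correlation of 0.11, and which cells gave the Maf values was not tested.

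Complement partners had changes above 0 after cisplatin in 13 of 13 tested genes, with a median of 0.27, and 1 of the 13 rose. That gene was C1s, the protease that C1q activates through C1r. It rose from 90.8 ± 18.3 to 124 ± 5.69 FPKM (log2 0.47, SE 0.13, adjusted p = 0.0402 in limma) and was at 98.1 ± 12.2 with CYM-5478. C1r was at 44.3 ± 5.52, 55.6 ± 3.81 and 47.5 ± 5.41 in the same order, with adjusted p = 0.0584 after cisplatin. Both proteases are made by fibroblasts as well as macrophages. Fibroblast markers summed to 3030 to 3840 FPKM in vehicle, 4240 to 5060 after cisplatin and 3360 to 3610 with CYM-5478, and 2 of their 6 genes, Pdgfra and Col3a1, rose after cisplatin. The part of fibroblasts in the complement values was not tested.

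Fc receptors and the signalling genes that share their ITAM motif, an activating tyrosine motif, were above 0 after cisplatin in 12 of 12 tested genes, with a median of 0.20. Fcgr2b, the inhibitory Fc receptor for IgG, rose from 8.14 ± 1.30 to 11.3 ± 1.04 FPKM (log2 0.46, SE 0.13, adjusted p = 0.0453 in limma) and was at 8.84 ± 1.68 with CYM-5478. Tyrobp, the adaptor DAP12 and a relative of the Fcer1g chain, was at 42.6 ± 5.90, 53.0 ± 9.42 and 41.3 ± 9.85 FPKM, with adjusted p = 0.288 after cisplatin. Trem2, a lipid-sensing receptor that signals through DAP12, was at 6.13 ± 0.179, 7.57 ± 1.26 and 5.73 ± 1.20 (adjusted p = 0.221).

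Of 15 tested scavenger and resident macrophage surface genes 14 were above 0 after cisplatin, with a median of 0.29, and 1 rose. Msr1, a scavenger receptor for modified lipoproteins, rose from 5.91 ± 1.10 to 8.78 ± 1.57 FPKM (log2 0.53, SE 0.15, adjusted p = 0.0463 in limma). With CYM-5478 it was at 6.15 ± 0.918 (log2 -0.47 from cisplatin, adjusted p = 0.0859). Folr2, a folate receptor of resident macrophages, was at 11.7 ± 2.95, 16.1 ± 1.23 and 12.1 ± 1.78, and Lyve1 at 12.6 ± 2.61, 18.0 ± 4.31 and 14.9 ± 1.41. Their adjusted p after cisplatin were 0.0741 and 0.0898.

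Lysosome genes went both ways. Of 13 tested, 2 rose and 2 fell after cisplatin, with a median of 0.09. Gpnmb, a glycoprotein of loaded phagocytes, rose from 9.32 ± 0.817 to 12.9 ± 1.34 FPKM (log2 0.44, adjusted p = 0.0398), and Npc2, which carries cholesterol out of lysosomes, from 138 ± 6.64 to 157 ± 4.87 (log2 0.18, adjusted p = 0.0415). Ctsb, the protease cathepsin B, fell from 624 ± 19.7 to 535 ± 28.6 (log2 -0.23, adjusted p = 0.0375). These adjusted p are from limma. With CYM-5478 Ctsb was at 624 ± 32.6, higher than with cisplatin (log2 0.23, adjusted p = 0.0496), the only gene of the 7 lists to pass in that comparison. Neurons and glia also express lysosomal genes, and 11 of 14 pan-neuronal genes fell after cisplatin, with a median of -0.63. The part of neurons in the Ctsb values was not tested.

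Monocyte recruitment chemokines and receptors held 10 tested genes, of which 7 were above 0 after cisplatin, with a median of 0.12, and 0 passed. Cxcl12, which binds CXCR4, was at 39.7 ± 5.42 FPKM in vehicle and 48.5 ± 6.23 after cisplatin (adjusted p = 0.12 in limma). Of 15 cytokine and activation genes 11 were above 0, with a median of 0.18, and 0 passed. Casp1, the protease that matures interleukin-1 beta, was at 4.68 ± 0.803 and 7.15 ± 1.56 (log2 0.54, adjusted p = 0.0507). Tnf was low, at 0.861 ± 0.234 and 1.39 ± 0.236 (log2 0.48, adjusted p = 0.0738).

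With CYM-5478 against cisplatin alone, the medians of the 7 lists ran from -0.20 for the CSF1 list and -0.21 for complement to -0.04 for lysosome genes. Against vehicle they ran from -0.04 to 0.11. Of the 7 list genes that passed after cisplatin, 0 passed without vehicle replicate 2 and 0 without cisplatin replicate 4, though all kept their direction. Over all genes 3 and 0 passed with the same omissions, in place of 1794. Leaving out vehicle replicate 3, or cisplatin replicate 1 or 3, left 1 of the 7 past the threshold, and on the TPM scale 2 passed, Ctsb among them. The difference of Ctsb between CYM-5478 and cisplatin passed in 1 of the 12 fits with a library left out, the one without cisplatin replicate 2.

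**Figure D4:**
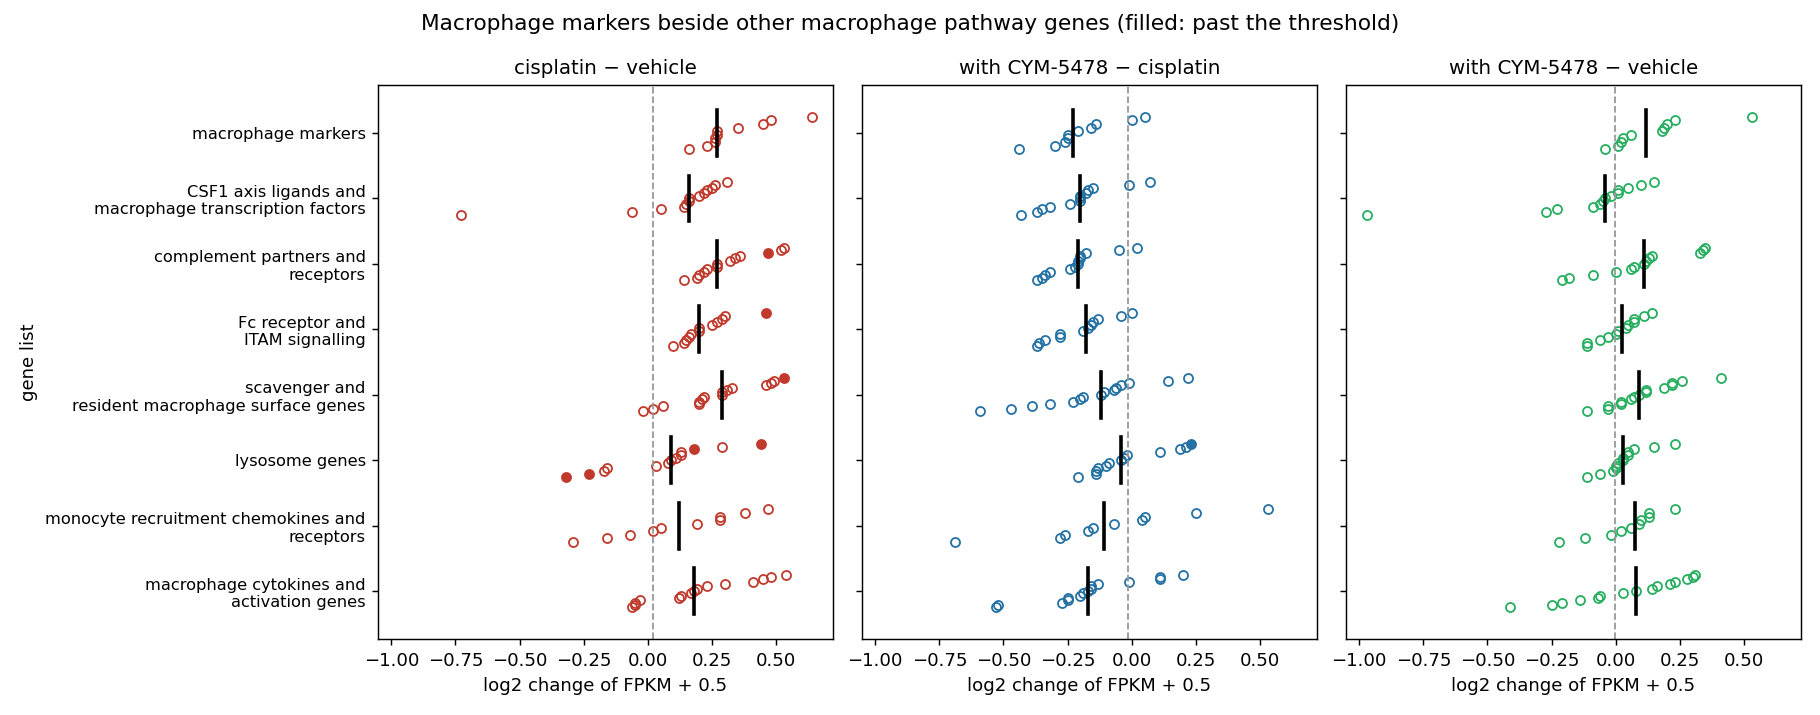
Limma log2 changes (horizontal axis) of the tested genes of the 10 markers and 7 further lists (vertical axis) in the 3 comparisons. Each gene is 1 point, filled where limma's adjusted p was under 0.05. Black bars are list medians and the dashed line is the median of all tested genes. Filled points after cisplatin lie to the right of the line for C1s, Fcgr2b, Msr1, Gpnmb and Npc2 and to its left for Ctsb, among others.

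Dendritic cells are relatives of macrophages that use several of the same genes. Their list had 6 matched genes, summing to 14.9 to 18.5 FPKM in vehicle, 14.3 to 16.3 after cisplatin and 14.5 to 18.1 with CYM-5478. Of the 5 tested, 4 had changes above 0 after cisplatin, with a median of 0.16, and 1 passed. That gene, Flt3, a growth factor receptor of dendritic cell precursors, fell after cisplatin from 6.02 ± 0.383 to 4.14 ± 0.575 FPKM (log2 -0.50, adjusted p = 0.0205 in limma). With CYM-5478 it was at 5.51 ± 0.676. Its correlation with the markers' mean profile was -0.63, beside -0.64 for the neuronal gene Uchl1. The part of neurons in the Flt3 values was not tested. Mast cell genes, which share Fcer1g, summed to 19.0 to 30.3 FPKM in vehicle, 22.2 to 25.8 after cisplatin and 19.0 to 24.5 with CYM-5478. Of the 7 mast cell genes 0 passed.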

How the data were processed

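Strand-specific libraries were prepared from rRNA-depleted total RNA of rat ganglia, per the labels' protocols. The authors deposited FPKM values, 1 per transcript in each rat. The submitters' processing notes list STAR 2.7.8a, Bowtie2 2.0.6, DESeq2, FastQC, bcl2fastq 2.20 and the build Rnor_6.0 without role or order, and the program behind the FPKM is not given in the sources used here. The table used here is below its recorded size and may lack some transcripts.

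The FPKM of 30275 transcripts were summed per gene, and libraries were scaled by median ratios (0.9941 to 1.008). A mean FPKM of at least 0.5 was required, and tests were run on log2(FPKM + 0.5) by limma 3.58.1 (R 4.3.3, variance trend, 12 libraries, 9 residual degrees of freedom) and Benjamini-Hochberg adjustment, with a threshold of 0.05. Ratios were tested by two-sided exact permutation. The workflow was tested on simulated data. The 10 markers, the lists and the tests were chosen with earlier results of these data known. Named list genes were up to 4 per list of smallest p in any comparison plus those past the threshold, with up to 2 past it and the 2 of highest mean from other cell types, and the 8 genes most like the markers. Of 210 list symbols 205 matched. C2 and Fcgr2a matched several genes, and Lyz2, Ccr2 and Cd209 are not analysed here. Some genes that the naming rule takes are not reported here. Replicate numbers are those of the sample descriptions, which differ from those of the titles. Alternatives tried were TPM, quantile normalization, unscaled values, array weights, replicate blocks, pseudocounts of 0.1 and 1, filters at 0 and 2 FPKM, fits of 8 libraries and each library left out. Promoters came from RefSeq (GRCr8).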

Additional observations from a re-analysis of the deposited data

Results flagged for a closer look

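Among 74 named genes, 222 groups of 4 rats were searched for a rat that stands far from the other 3 of its group, and 5 were found, 0 of them among the 10 macrophage markers. Chance gives about 1 in 20 groups, a larger share than the 5 of 222 found, so the rats below are listed as a description only. Nkg7, a granule gene of natural killer and T cells, was at 4.54 FPKM in vehicle replicate 3 and at 2.7 to 2.94 in the other 3. Ccl3, a macrophage chemokine, was at 1.76 FPKM in cisplatin replicate 4, the rat with the highest macrophage markers, and at 0.126 to 0.364 in the other 3. Kit, a growth factor receptor of mast cells that ganglion cells also express, was at 12.8 FPKM in cisplatin replicate 3 and at 11.1 to 11.3 in the others. In CYM-5478 replicate 1 Casp1 was at 7.40 FPKM against 5.27 to 5.41, and Apoe, a lipid carrier of satellite glia and macrophages, at 1500 FPKM against 1960 to 1990.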

How the results depend on the processing

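Of 29 sign changes of single markers across the settings tried, 0 were in cisplatin against vehicle. The number of genes past the threshold there was 1794, and it was 3296 under TPM, 1019 with 8 libraries and 0 to 1846 with a library left out (3 and 1166 on omitting vehicle replicates 2 and 3, 776 and 0 on omitting cisplatin replicates 1 and 4). TPM gave 117 higher and 3179 lower genes in place of 457 and 1337, and moved the median of all genes from 0.02 to -0.09. Relative to that median the 10 markers stood at 0.26 and, under TPM, 0.25. With CYM-5478 against cisplatin 935 genes became 2 without the filter, 2576 under TPM (2527 higher and 49 lower in place of 755 and 180), 452 with array weights, 0 with 8 libraries and 0 to 1088 with a library left out (0 without vehicle replicate 1, cisplatin replicate 1 or 4, or CYM-5478 replicate 2, 3 or 4; 436 and 592 without vehicle replicates 3 and 4). Against vehicle 0 became 1 with 8 libraries and 0 to 2 with a library left out. The count of markers past the threshold after cisplatin was 0 to 1 with a library left out. The causes were not tested.

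Same-numbered rats did not deviate together (correlations -0.24 to 0.15), so the numbers were not taken as pairs. The description-number block gave 1881 and 1304 genes for the first 2 comparisons and the title-number block 0 and 0 (2537 and 3601 at an unadjusted p under 0.05), each with 0 markers. Title number 2 occurs only in vehicle replicate 2, so the title-number block takes that rat out of every comparison. It also leaves fewer residual degrees of freedom. After cisplatin the title-number block gave a median of 0.22 for the 10 markers. In limma 0 of them then stood at an unadjusted p under 0.05, in place of 5.

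Some changes switched sign, none of them past the threshold. Against vehicle with CYM-5478, the title-number block gave -0.07 for Aif1, -0.02 for C1qb, -0.17 for Cd68, -0.05 for Csf1r and -0.01 for Fcer1g, array weights gave -0.05 for Aif1 and -0.04 for Cd68, and TPM gave 0 for Cd68. Against cisplatin Mrc1 became 0.11 under TPM and 0.01 with array weights or the title-number block. With a library left out, changes against vehicle ran from -0.06 to 0.12 for Aif1, -0.12 to 0.12 for Cd68, -0.06 to 0.10 for Csf1r, -0.10 to 0.02 for Emr1 and -0.02 to 0.20 for Itgam, and those against cisplatin from -0.09 to 0.18 for Cd163 and -0.06 to 0.07 for Mrc1.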
